A study of Homo sapiens with 6 samples.

Results

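The genes described here encode centrosomal proteins and their close relatives: the CEP genes named by CEP and a number, the centrins CETN1, CETN2 and CETN3, and PLK4, STIL, SASS6 and CPAP, which assemble new centrioles. They were picked by gene symbol alone, from probe sets that the platform annotation gives to a single gene, which yielded 40 genes out of 19775 and 113 probe sets out of 54613. What was measured is the transcript of each gene, not the protein, and each gene was read at the probe set with the highest mean log2 signal over the 6 arrays. On that basis 39 of the 40 genes, and 95 of the 113 probe sets, were bright enough to be tested; the exception was CETN1.

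Flp-In T-REx 293 cells, a line derived from the human embryonic kidney line HEK293, carried a stable GFP transgene that was inducible and was kept off in all samples, which also grew under selective antibiotics. In the first group of 3 arrays the cells had received siRNAs against TET1, TET2 and TET3 at the same time. In the other group of 3 arrays they had received a pool of non-targeting siRNAs, and RNA was taken 96 h after treatment in both groups. Clones 1, 2 and 3 of the line each supplied 1 array to either group, so each gene has a difference within every clone. Without the clone in the fit, p-values measure the difference against the spread between clones of a single line within each group. With the clone as a block, they measure it against how far the differences within these clones vary. In either fit limma draws the spread of each probe set toward that of probe sets of similar signal. The spread used is thus partly shared between genes and is not that of the gene alone. TET1, TET2 and TET3 are the enzymes that oxidise 5-methylcytosine in DNA. TET1 had a signal of 584.7 ± 122.99 under TET siRNA and 3222 ± 216 under non-targeting siRNA, TET2 had 380.4 ± 85.5 and 801 ± 78.6, and TET3 had 545 ± 44.8 and 1276 ± 160 (SD, n = 3 each). At all 3 genes every knockdown array lay below every control array. With the clone as a block limma gave adjusted p-values of 3.1e-06, 0.0047 and 0.0021 for TET1, TET2 and TET3, and when the clone was not modelled it gave 0.0023, 0.198 and 0.0678. Each array had a trimmed mean signal of 1000, and log2 signals of any pair of arrays correlated at 0.934 to 0.944 over all probe sets.

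A centrosome holds a pair of centrioles, barrels of microtubules, in a cloud of protein that nucleates further microtubules. Each centriole is copied once per cell cycle: PLK4 starts the process with STIL and SASS6, CPAP and the CEP proteins around it build the new barrel, and the older centriole carries appendages that let it dock at the membrane and template a cilium. Centrins are small calcium-binding proteins of the centriole lumen. CEP55 stands apart in function, since it acts at the midbody, where dividing cells are cut apart.

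The centrosome genes had a median log2 difference, TET siRNA minus non-targeting siRNA, of 0.01, and 3 of them were called in the fit that takes the clone into account. Those were CEP55, which fell, and CEP135 and CETN2, which rose. When the clone was not modelled, limma called 0 of the 39 tested genes at an adjusted p under 0.05. In that fit the background was 0% of 12318 tested genes called higher and 0.0162% called lower. At an unadjusted p under 0.05 in the same fit, 4 centrosome genes (10.3%) were higher, against 3.59% of all tested genes, and 1 (2.56%) was lower, against 3.37%. With the clone as a replicate block, 2 of 39 were called higher, or 5.13%, against 0.479% of all tested genes, and 1 of 39 was called lower, or 2.56%, against 0.836%. At an unadjusted p under 0.05 with the block, 6 (15.4%) were higher and 6 (15.4%) lower, against 8.61% higher and 7.53% lower over all tested genes.

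TET enzymes act on methylated CpG sites, so the 250 bases before the start of the 3 called genes are shown, from the RefSeq promoter table of build GRCh38.p14. Capitals mark a CHR element (TTTGAA or TTCGAA), known from genes transcribed in G2 and mitosis, or a CCAAT box, the site of the factor NF-Y, on either strand. The CEP55 window lies at chr10:93496362-93496611 on the plus strand, that of CEP135 at chr4:55948695-55948944 on the plus strand and that of CETN2 at chrX:152830758-152831007 on the minus strand.
CEP55: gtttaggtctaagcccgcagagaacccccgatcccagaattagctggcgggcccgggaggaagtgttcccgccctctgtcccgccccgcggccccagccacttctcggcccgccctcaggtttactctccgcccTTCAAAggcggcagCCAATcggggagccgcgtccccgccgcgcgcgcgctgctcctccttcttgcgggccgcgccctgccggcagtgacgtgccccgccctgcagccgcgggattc
CEP135: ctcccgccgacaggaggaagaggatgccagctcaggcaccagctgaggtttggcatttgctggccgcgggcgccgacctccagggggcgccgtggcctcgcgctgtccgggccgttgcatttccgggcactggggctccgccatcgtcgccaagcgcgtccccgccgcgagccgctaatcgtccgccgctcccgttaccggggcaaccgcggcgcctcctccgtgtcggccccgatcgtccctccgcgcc
CETN2: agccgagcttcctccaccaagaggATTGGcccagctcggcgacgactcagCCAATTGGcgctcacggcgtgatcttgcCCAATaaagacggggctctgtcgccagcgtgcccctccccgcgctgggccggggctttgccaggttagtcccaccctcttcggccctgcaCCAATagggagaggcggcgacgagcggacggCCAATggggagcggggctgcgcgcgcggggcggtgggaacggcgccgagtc

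The CEP55 window held 1 CHR element, beginning 116 bases before the start, and 1 CCAAT box, beginning 102 bases before it. Both motifs occurred together in 5.05% of 35114 RefSeq windows of this length. The CETN2 window held 6 CCAAT boxes, of which a pair overlaps on opposite strands, and 0.105% of all windows held 6 or more. Neither motif was found in the CEP135 window, and 68.0% of all windows likewise had no CCAAT box. Counted on 1 strand, CpG sites numbered 29 in CEP55, 36 in CEP135 and 28 in CETN2, against a median of 20 and an upper quartile of 28 over the 14817 windows of tested genes, and of 11 and 23 over all windows. Windows were found for 36 of the 40 genes (46 windows), with a median of 23.5 CpG sites, against 20 in the windows of tested genes. The upper quartile of these 46 windows was 28.75, so high counts were not particular to the called genes. In genes that were not called the counts ran from 1 in a CEP112 window to 39 in CEP43, with 36 in CEP19. A CHR element was present in 9 of these 46, or 19.6%, against 14.3% of all windows and 10.3% of those of tested genes, and a CCAAT box in 22 of them, or 47.8%, against 32.0% and 32.8%. Both motifs were present in 6 of the 46, or 13.0%, against 5.05% of all windows and 3.93% of those of tested genes. CEP55 shared the combination with CEP152, CEP192, CEP295, CEP57 and CEP89, which were not called. These are matches of letters, and no binding or methylation was measured.

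CEP55 was the only centrosome gene called lower in the replicate block fit. CEP55 (Entrez gene 55165) recruits the membrane-cutting ESCRT machinery to the midbody, and its transcript is known to be most abundant as cells approach division. Its signal was 4711, 4896 and 5033 in clones 1, 2 and 3 under TET siRNA, against 7250.5, 6963 and 7165 under non-targeting siRNA. All 3 knockdown arrays were thus below all 3 control arrays, with 65.0%, 70.3% and 70.2% of the control left in clones 1, 2 and 3. The means were 4880 ± 162 and 7126 ± 148 (SD, n = 3 each), and the log2 difference was -0.55 (SE 0.08 without the clone, 0.07 with it). Limma gave an adjusted p of 0.0037 with the replicate block and 0.0832 when the clone was not modelled. With clone 1 left out, CEP55 passed in that second fit as well (adjusted p 0.0240), whereas with clone 2 or clone 3 left out the adjusted p there was 0.999 or 1.00. The call with the block was lost with plain empirical Bayes (adjusted p 0.320) and, narrowly, when probe sets were averaged by gene before the fit (0.0515). In a bulk sample, fewer cells carrying a transcript and less of it in each cell cannot be told apart.

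CEP135 and CETN2 were the genes called higher. CEP135 (Entrez gene 9662) links the cartwheel at the base of a new centriole to its microtubule wall. Its signal was 2618, 2287 and 2491 in clones 1, 2 and 3 under TET siRNA, against 1956, 1792 and 1757 under non-targeting siRNA. The groups did not overlap, and the means were 2465 ± 167 and 1835 ± 106 (SD, n = 3 each), a 1.34-fold higher level. The log2 difference was 0.43 (SE 0.10 without the clone, 0.08 with it). Its limma adjusted p was 0.0411 in the replicate block fit and 0.423 when the clone was not modelled. The only other CEP135 probe set had a similar mean of 0.40 but was too dim to be tested. Its clones were at 0.69, -0.24 and 0.75 with overlapping groups, so it cannot check the call either way.

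CETN2 (Entrez gene 1069) encodes centrin 2, which also belongs to the XPC complex that recognises DNA damage. Signals of 5723, 4520.5 and 4610.0 were measured in clones 1, 2 and 3 under TET siRNA, against 3921, 3522 and 3866 under non-targeting siRNA. Again no control array reached the lowest knockdown array, and clone 1 had the widest gap. The means were 4951 ± 670 and 3770 ± 217 (SD, n = 3 each), 1.31-fold higher, with a log2 difference of 0.39 (SE 0.11 without the clone, 0.08 with it). Limma gave an adjusted p of 0.0443 in the replicate block fit and 0.565 when the clone was not modelled. Both of these calls hung on the setting. In the block fit without clone 1 the adjusted p was 0.160 for CEP135 and 0.219 for CETN2, and without clone 3 it was 0.349 for CEP135 and 0.156 for CETN2. When dim probe sets were kept it was 0.159 for CEP135 and 0.184 for CETN2.

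**Figure D1:**
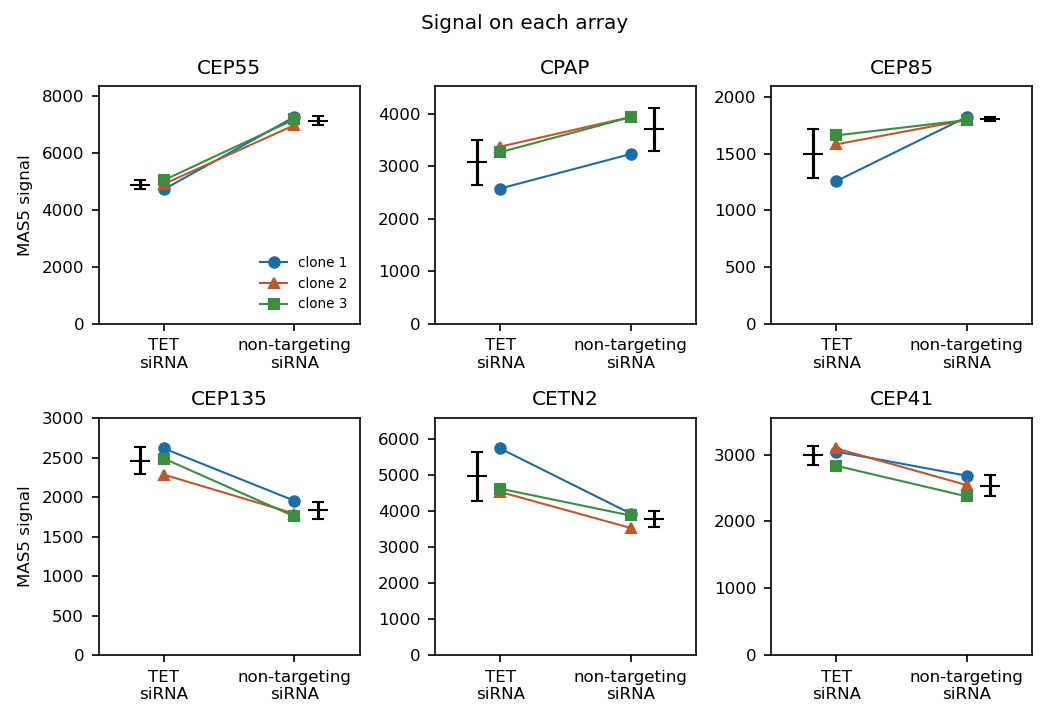
MAS5 signal on each array (vertical axis, linear, from 0) for 6 genes, with TET siRNA on the left and non-targeting siRNA on the right of each panel. Coloured points joined by a line are the arrays of 1 clone, and black marks are the mean and SD of 3 arrays. The lines of all 3 clones climb to the right in CEP55, CPAP and CEP85 and descend in CEP135, CETN2 and CEP41, while the groups overlap in CPAP.

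The other centrins were not called. CETN3, a centrin of the same lumen, had signals of 16904, 19439 and 18861 under TET siRNA, against 19033, 20944 and 19247 under non-targeting siRNA. Its difference was -0.10 (95% interval -0.29 to 0.08, limma adjusted p 0.877, and 0.551 with the replicate block), lower in all 3 clones with overlapping groups. CETN1, a centrin best known from testis, lay below the brightness filter, with 106, 59.0 and 148 under TET siRNA, against 48.0, 121 and 156 under non-targeting siRNA. Those values overlap fully, and clone 1 and clone 2 moved in opposite directions. The difference between the 2 brighter centrins was not tested.

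The genes that start centriole duplication had small mean differences that did not pass the test. PLK4, the kinase that triggers duplication, had signals of 2924, 3675 and 3583 under TET siRNA, against 3112, 3751 and 3693 under non-targeting siRNA. Its difference was -0.05 (95% interval -0.33 to 0.22, limma adjusted p 0.968, without the clone). In the fit with the replicate block the interval was -0.21 to 0.10 (adjusted p 0.797). Dimmer PLK4 probe sets gave 0.18 and -0.08. STIL, which PLK4 phosphorylates, had 5066, 4343 and 4473 under TET siRNA, against 5245, 3964 and 4247 under non-targeting siRNA. Its difference was 0.05, with an interval of -0.22 to 0.33 without the clone (limma adjusted p 0.968). With the replicate block the interval was -0.11 to 0.21 (adjusted p 0.804). In both genes clone 1 stood apart from clones 2 and 3 in either group, low for PLK4 and high for STIL. SASS6, which forms the cartwheel hub, had 2834, 1562 and 1726 under TET siRNA, against 2205, 2219 and 1725 under non-targeting siRNA. The clones disagreed, with differences of 0.36, -0.51 and 0.00, so the interval around -0.05 was wide. It was -0.54 to 0.45 without the clone (limma adjusted p 0.986) and -0.38 to 0.29 with the replicate block (adjusted p 0.921).

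CPAP had a similar difference in each clone, without passing the test. CPAP (Entrez gene 55835, formerly CENPJ) adds tubulin to the growing centriole. It had signals of 2576, 3375 and 3269.9 under TET siRNA, against 3235, 3942 and 3939 under non-targeting siRNA, so that 79.6%, 85.6% and 83.0% of the control was left in clones 1, 2 and 3. The log2 difference was -0.27 (SE 0.13), and its limma adjusted p was 0.116 in the replicate block fit, where the SE was 0.07, and 0.785 when the clone was not modelled. Groups overlapped because clone 1 was low under both siRNAs. All 3 tested CPAP probe sets were lower, at -0.27, -0.29 and -0.40. CEP85, which binds STIL and helps to activate PLK4, had 1259, 1585 and 1664 under TET siRNA, against 1827, 1801 and 1799.6 under non-targeting siRNA. Its groups were separate, at a difference of -0.28 (adjusted p 0.773, and 0.249 with the replicate block), mostly through clone 1 (-0.54). A dimmer CEP85 probe set gave -0.27, but there clone 1 had 0.07 and the difference came from clones 2 and 3.

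Among the partners that bring PLK4 to the centriole, CEP152 gave 2005, 2528 and 2661 under TET siRNA, against 1867, 2214 and 2204 under non-targeting siRNA. All 3 clones were higher at this probe set, by 0.10, 0.19 and 0.27 (mean 0.19, limma adjusted p 0.856, and 0.332 with the replicate block). The 2 dimmer CEP152 probe sets pointed the other way, at -0.25 and -0.24, so the direction for the gene depends on the probe set. CEP192, the other PLK4 recruiter, had a difference of 0.07, and CEP63, which binds CEP152, had 0.01. The remaining duplication genes, CEP57, CEP295, CEP44, CEP120 and CEP76, lay between -0.12 and 0.10. Of these, CEP120 works with CPAP in centriole elongation, CEP295 turns new centrioles into centrosomes, and CEP76 keeps centrioles from being copied again. Over the 14 tested genes of this role, 7 were positive and 7 negative with a median of 0.01. The replicate block called CEP135 higher and no other of the 14 in either direction.

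Genes of centriole length control, satellites and the cilium had positive differences in 8 of 11 cases and a median of 0.18 on the log2 scale. Negative differences made up 27.3% of them, against 48.1% of all tested genes. None of the 11 passed the test in either fit, and the median over all tested genes was 0.01. CEP162, which promotes assembly of the ciliary transition zone, had signals of 380, 514 and 554 under TET siRNA, against 375, 291 and 304 under non-targeting siRNA. Its difference of 0.57 was the highest among the 39 genes, yet it came from clones 2 and 3 (0.82 and 0.87) and was nearly absent in clone 1 (0.02). The limma adjusted p was 0.676, and 0.205 with the replicate block. A second CEP162 probe set had a mean of 0.55 with 0.49 in clone 1.

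CEP41, needed for tubulin glutamylation in cilia, had 3045, 3092 and 2833 under TET siRNA, against 2683, 2543 and 2374 under non-targeting siRNA. The groups did not overlap, and the difference was 0.24 (SE 0.09, limma adjusted p 0.720, and 0.181 with the replicate block), with 0.21 at the next probe set. CEP78, a protein of the mature centriole wall, had 3025, 2428 and 2512 under TET siRNA, against 2747, 2072 and 2207 under non-targeting siRNA. Clone 1 was the highest in both groups, which made the groups overlap, although the difference was positive in all 3 clones and at all 3 tested probe sets (0.13 to 0.21). CEP97, which caps the centriole together with CCP110, and CEP126 were also higher in all 3 clones, both at a mean of 0.18. CEP126, which takes part in centrosomal microtubule organisation, had 0.31 and 0.56 at its other probe sets, whereas both other probe sets of CEP97 were negative, the lower at -0.19.

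In the same role 2 genes were lower in all 3 clones. CEP72, a satellite protein, had 1054, 1404 and 1133 under TET siRNA, against 1209, 1616 and 1491 under non-targeting siRNA. Its difference was -0.27 (limma adjusted p 0.820, and 0.249 with the replicate block), with overlap because the clones differ in level. CEP20, a relative of CEP43 that also acts in cilium formation, had 6942, 6798 and 6730.0 under TET siRNA, against 6985, 8818 and 8086 under non-targeting siRNA. The groups were separate, but the difference in clone 1 was only -0.01, and the mean of -0.22 had an adjusted p of 0.758, and 0.237 with the replicate block. Its other probe set gave -0.25. The rest of this role were CEP290 of the ciliary transition zone, CEP43, CEP19, which helps to load transport complexes into the cilium, and the satellite protein CEP131. In that order they had means of -0.08, 0.04, 0.17 and 0.23, with clones on both sides of 0 in each.

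Of the 4 appendage and 4 linker genes, 3 in each role (75%, against 48.1% of all tested genes) had negative means and none was called. CEP68, which helps to tie the centriole pair together, had 2457, 2503 and 2424 under TET siRNA, against 2473, 3021 and 2978 under non-targeting siRNA. Its difference of -0.19 came from clones 2 and 3 (limma adjusted p 0.798, and 0.339 with the replicate block), and its 3 other tested probe sets gave -0.25, -0.03 and 0.07. CEP250, the anchor of the same linker, had -0.09, CEP70, which binds gamma-tubulin, had -0.11, and CEP350, which anchors microtubules, had 0.04. Of the distal appendage proteins, CEP89 had -0.16 and CEP164 had 0.24, with single clones of CEP164 between -0.08 and 0.61. CEP128, of the subdistal appendages, had -0.06, and CEP112, grouped with them here, had -0.17. Besides CEP55, the mixed group of CEP15, CEP85L and CEP95 had means of 0.03, 0.01 and 0.01, although single clones of CEP95 ran from -0.47 to 0.39.

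**Figure D2:**
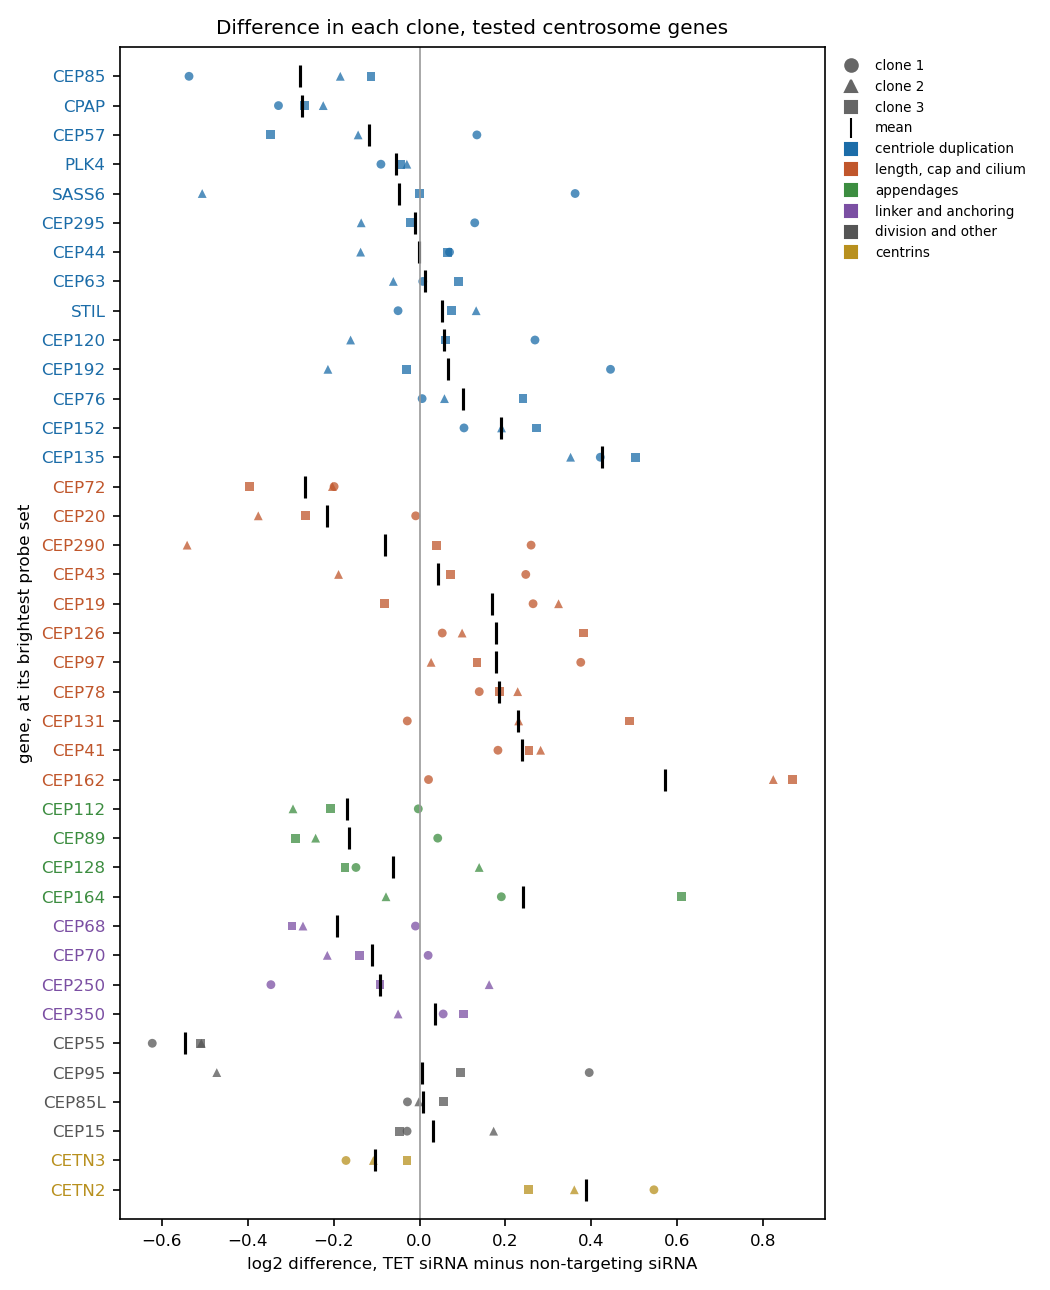
Log2 difference, TET siRNA minus non-targeting siRNA (horizontal axis), for the 39 tested genes (vertical axis), coloured by role. Symbols are the 3 clones and black bars their means. CEP55 is the leftmost gene by mean, at -0.55, and CEP162 the rightmost, at 0.57, while the clones of 21 genes fall on both sides of 0.

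Agreement between clones was close to that of the transcriptome as a whole. Of the 39 genes, 9 were higher in all 3 clones, or 23.1%, against 19.9% of all tested genes, and 9 were lower in all 3, or 23.1%, against 18% of all. Every knockdown array lay above every control array for 4 genes (CEP135, CETN2, CEP41 and CEP162), or 10.3%, against 6.77% of all tested genes. The reverse held for 3 genes (CEP55, CEP85 and CEP20), or 7.69%, against 6.41%. These 4 shares are near the background. Clones 1, 2 and 3 had 15 (38.5%), 24 (61.5%) and 18 (46.2%) of the 39 genes lower, against 48.3%, 46.4% and 51.8% of all tested genes in clones 1, 2 and 3, and their medians were 0.04, -0.08 and 0.04. The median spread between clones under TET siRNA was an SD of 0.15 on the log2 scale, against 0.16 under non-targeting siRNA.

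The size of the differences was also ordinary. The median over the 39 genes was 0.01, with quartiles of -0.11 and 0.17, while all 12318 tested genes had a median of 0.01 and quartiles of -0.10 and 0.13. Differences beyond 0.25 in either direction occurred in 7 of the 39, or 17.9%, against 19.7% of all tested genes. The 39 genes were brighter, with a median signal of 2230 and a lowest of 381, against 1512 and 117 for all tested genes. The shares were not compared at like signal. No centrosome gene differed by 2-fold, since the means ran from -0.55 to 0.57.

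**Figure D3:**
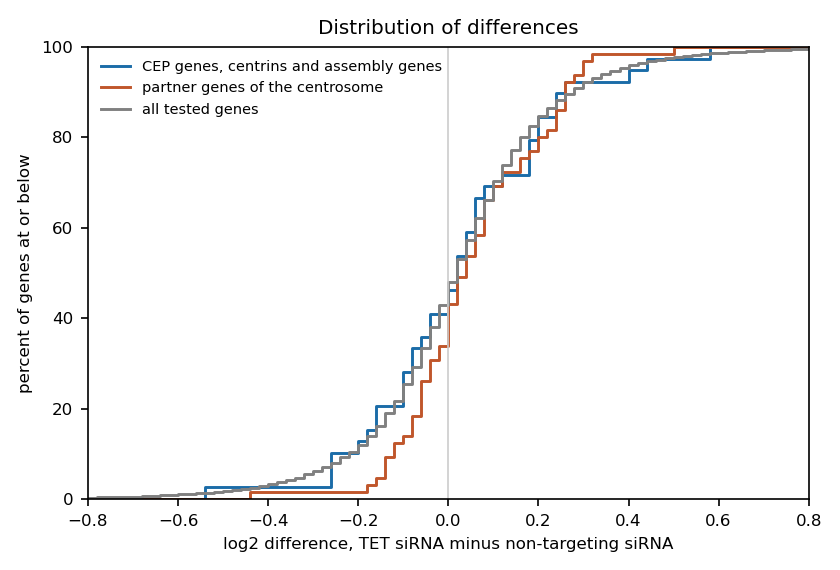
Cumulative percent of genes (vertical axis) at or below each log2 difference, TET siRNA minus non-targeting siRNA (horizontal axis), for the 39 tested centrosome genes, 65 partner genes and all 12318 tested genes. The centrosome genes follow the curve of all tested genes, with medians of 0.01 for both.

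Where a gene had several tested probe sets, these often disagreed. Of 27 genes with 2 or more, all probe sets pointed the same way in 13, of which 8 were higher and 5 lower, and they lay on both sides of 0 in the other 14. CEP162, CEP41, CEP78, CEP126, CEP19, CEP76, CEP164 and CEP15 were higher at each, and CPAP, CEP85, CEP20, CEP290 and CEP128 were lower at each. CEP70 had the widest range, with 0.11 at one probe set and -0.88 at a dim one. The called genes CEP55 and CETN2 have a single probe set on the array, and so lack such a check. Some brightest probe sets were of a type that can pick up several transcripts or related sequences, but not in CEP55, CEP135 or CETN2. The suffix was _s_at in 9, _x_at in 3, _f_at in 1 and _a_at in 1 of the 40 genes.

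**Figure D4:**
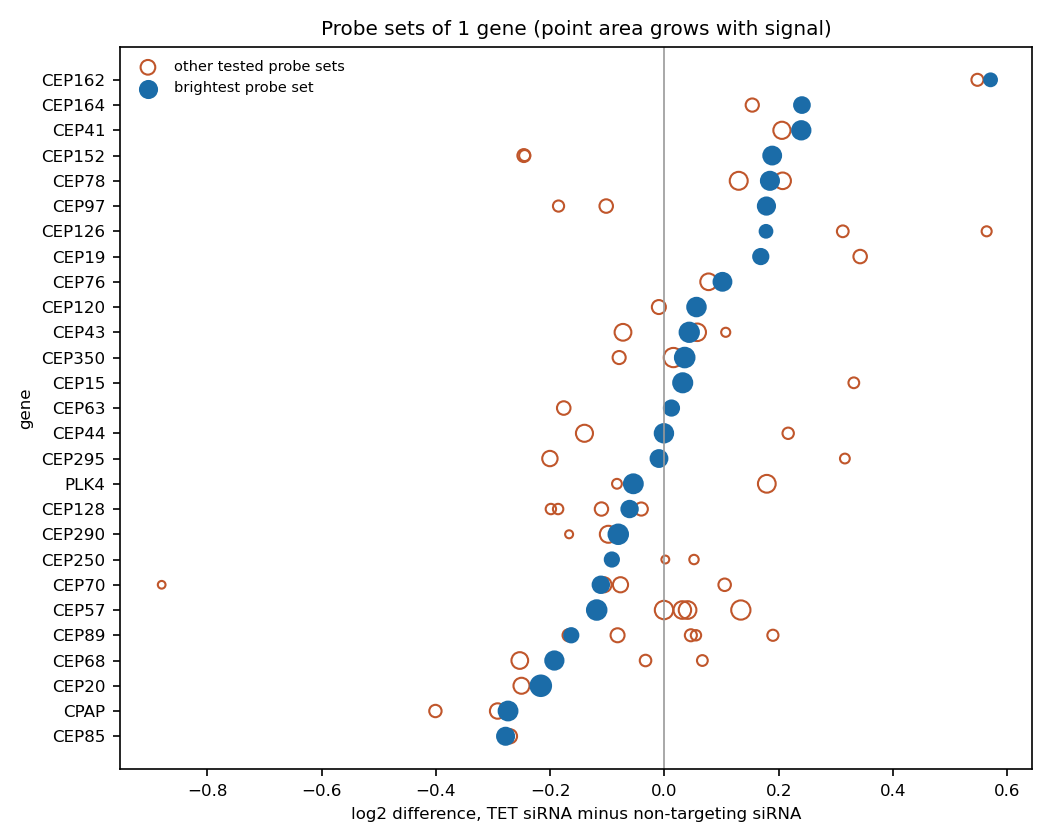
Log2 difference, TET siRNA minus non-targeting siRNA (horizontal axis), of every tested probe set of the 27 genes with 2 or more (vertical axis). Filled points are the brightest probe sets and open points the others, with area growing with signal. The probe sets of CPAP and CEP162 stay on 1 side, those of CEP152 and CEP57 lie on both, and the farthest point is a dim probe set of CEP70 at -0.88.

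A list of genes for proteins that work beside these ones gave no call. Of its 73 partner genes, 69 were found and 65 tested, and limma called 0 of them in either direction, with the replicate block or without it. At an unadjusted p under 0.05, 1 of 65 was higher and 0 were lower without the clone, against 3.59% and 3.37% of all tested genes. With the block 8 of 65 were higher and 3 lower, against 8.61% and 7.53% of all tested genes. Their median was 0.03, with 37 positive and 28 negative (43.1%, against 48.1% of all tested genes). In the fit without the clone, the partners with the smallest p among the higher ones were NIN, the subdistal appendage protein ninein, at 0.28 (limma adjusted p 0.628, and 0.0935 with the replicate block), and KIAA0753, a satellite protein, at 0.31 (0.756 and 0.261 in the same order). Among the lower ones in that fit they were PIDD1, which signals extra centrosomes to p53, at -0.45 (0.774 and 0.233), and AURKA, the mitotic centrosome kinase, at -0.15 (0.785 and 0.338). In the replicate block fit TUBE1, epsilon-tubulin, at 0.28 (adjusted p 0.187) came ahead of KIAA0753, and NEDD1, which brings gamma-tubulin to the centrosome, at -0.20 (adjusted p 0.253) came ahead of AURKA. PIDD1 had 548 ± 35.1 under TET siRNA, against 772 ± 226 under non-targeting siRNA (SD, n = 3 each), with 1 clone in the other direction. The groups of NIN did not overlap, with 5050 ± 274 under TET siRNA, against 4154 ± 268 under non-targeting siRNA (SD, n = 3 each).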

How the data were processed

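Total RNA from 6 samples was labelled as biotinylated cRNA and read on Affymetrix arrays of 1 colour, following the labels' protocols. The values are intensities that the authors deposited, signals per probe set on a linear scale. Per the submitters' processing notes they were made with MAS5, for which no version is given in the sources used here. These signals carry a common scaling (a mean of 1000 without the outer 2% at each end), so none was added. MAS5 works array by array, and the dim probe sets of these genes were noisy. Detection calls and scan batches were not used here, and the number of arrays limits precision.

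After removal of 62 control probe sets, log2 signals in the upper 50% by mean over all 6 arrays (27306 of 54613, geometric mean signal above 117) were fitted in limma 3.58.1 under R 4.3.3, as TET siRNA minus non-targeting siRNA, with a trended, robust empirical Bayes step. P-values are two-sided and Benjamini-Hochberg adjusted over all 27306. Symbols come from the platform annotation, which gives 1 symbol to 41091 probe sets, several to 1801 and none to 11721, and all 40 genes matched RefSeq by Entrez ID. Fits were tested on simulated data, in which the planted differences were larger than those of any gene called here. That run does not tell how well differences of the called size are recovered. The replicate number is the clone number in the labels, so it pairs the arrays. Once group means were removed, the 2 arrays of a clone correlated at 0.493, 0.234 and 0.236 for clones 1, 2 and 3, while arrays of different clones and groups reached 0.219 at most. The planned model had no clone term, and values with the clone as a replicate block are given beside it. Array values are printed for genes that passed in either fit, PLK4, STIL, SASS6, CPAP, the centrins and CEP55. They are also printed for the 6 largest differences in each direction that shared a sign in all clones. The partners described are the 2 of smallest p in each direction in each fit, without array values. The genes and lists were chosen with earlier results of these data known. Alternatives were the filter, a pseudocount of 36.1, quantile normalization, plain empirical Bayes, left-out arrays and clones, and other probe set rules. Plots used matplotlib 3.10.9.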

Additional observations from a re-analysis of the deposited data

How the results depend on the processing

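Without the clone, the counts of centrosome genes past the threshold stayed at 0 in both directions with each filter, the pseudocount, quantile normalization, plain empirical Bayes and either probe set rule. With the replicate block 2 were higher and 1 lower. The block gave the same counts with probe sets of suffix _s_at and _x_at set aside where a gene had others. It gave 0 and 1 when dim probe sets were kept. With plain empirical Bayes, or with all probe sets of a gene averaged, it gave 0 and 0. The block settings with a changed filter, Bayes step or probe set rule were chosen after seeing the data. Leaving out arrays or clones gave 0 to 2 higher and 0 to 1 lower, and for the partners 0 to 3 higher (NIN, TUBE1 and USP28, with the block and without clone 2); no partner was called lower in any setting. CEP55 was called in 6 of 8 block settings and in 1 of 17 without the block, and CEP135 and CETN2 in 3 of 8 and 0 of 17. Of 383 values of 16 named genes under the alternatives, 17 changed direction, all from differences that were not called. Averaging probe sets turned CEP152 to -0.20 and PLK4 to 0.014 with or without the block, and the probe set rule turned PLK4 to 0.18 and CEP68 to 0.066. With arrays or clones left out, PLK4 ran from -0.14 to 0.050, SASS6 from -0.31 to 0.18 and STIL from -0.032 to 0.17. The cause of these turns was not tested.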

Other observations

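The 18 probe sets of centrosome genes below the brightness filter gave differences between -1.55 (CEP164) and 1.18 (CEP112) on the log2 scale, much wider than the brightest probe sets of the same genes at 0.24 and -0.17. Their clones were far apart: the dim CEP164 probe set had -2.89, -2.12 and 0.36 in clones 1, 2 and 3, and the dim CEP112 probe set had -0.56, 0.93 and 3.16. None of these was tested.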
